A study of Mus musculus with 2 samples.

Results

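The 38 genes described here mark segments of the nephron, the tubular unit of the kidney, and all 38 were found among the 20299 genes of the count table. They are a list of names that uses no threshold on the counts, drawn up with earlier results of these data known. Of them, 24 mark the proximal tubule, 2 the thick ascending limb, 4 the distal convoluted and connecting tubule, and 2 the collecting duct, and 6 were not assigned to 1 segment. The counts are unique molecular identifiers (UMIs), each standing for 1 captured transcript, from droplet-based single-cell RNA sequencing of mouse kidney.

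Both libraries came from mice with nephrotoxic nephritis (NTN), a model in which mice preimmunized with sheep IgG receive sheep serum against the glomerulus. According to the labels, the IgG dose was 200 μg in complete Freund's adjuvant and the serum dose was 2 μL per g of body weight, given 4 days later, although the methods state another serum volume, and kidneys were digested with liberase at 0.2 mg/mL for 30 minutes at 37°C. The mice were C57BL/6 and 8 weeks old per the methods. *Vsir-/-* mice lack VISTA, an immune checkpoint protein, in all cells. Each genotype had 1 library, and the number of mice behind it is not given in the sources used here, so no test between genotypes was possible and every interval below covers counting error only. The labels describe the WT library as sorted CD45+ cells and the *Vsir-/-* library as kidney cells of all kinds, whereas the methods describe a CD45+ sort. Genotype and sort therefore cannot be told apart in any comparison of the libraries.

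The WT library held 5470 cells and 32799550 UMIs, with a median of 4727 per cell, and the *Vsir-/-* library held 1844 cells and 18601189 UMIs, with a median of 6673. *Vsir* itself gave 4278 UMIs in WT cells and 8 in *Vsir-/-* cells. *Ptprc*, which encodes CD45, was seen in 94.2% of the WT and 73.6% of the *Vsir-/-* cells. The libraries shared 5 barcodes. They stood apart in ways that the genotype label does not name. No WT gene was seen in exactly 1 cell and 2 genes were seen in exactly 2 cells, against 708 and 652 genes in the *Vsir-/-* library, so that rare transcripts may have been set to 0 in WT cells. In 97 cases a newer gene symbol held UMIs in the *Vsir-/-* library and an older symbol of the same gene held them in the WT library. No older symbol of the 38 genes held WT UMIs, and all 38 were matched in RefSeq. *Xist*, a transcript of the inactive X chromosome, gave 0 UMIs in WT and 16405 in *Vsir-/-* cells, whereas the Y-linked gene *Ddx3y* gave 1779 and 0, although the methods describe male mice. A WT value of 0 is therefore reported only as listed at 0, with no fold change.

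The nephron filters blood at the glomerulus and then recovers or secretes solutes along successive stretches of epithelium. The proximal tubule takes back glucose, amino acids, phosphate, and filtered proteins. The thick ascending limb takes up sodium chloride and secretes uromodulin, the distal convoluted and connecting tubules adjust sodium and calcium, and the collecting duct adjusts water and urea. Immune cells are not known as a source of most of these transcripts.

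The start regions of 3 of the genes are shown because they carry a short element read by HNF1 factors, which are known regulators of tubular genes in more than 1 segment. *Slc34a1* and *Miox* mark the proximal tubule and *Umod* the thick limb. Each run gives the 250 bases before and 50 bases after the start of transcription, 5′ to 3′ on the strand of the gene, from RefSeq on build GRCm38.p6. Capitals mark the half-site GTTAAT or its reverse complement ATTAAC.
*Slc34a1*, chr13:55399398-55399697, plus strand: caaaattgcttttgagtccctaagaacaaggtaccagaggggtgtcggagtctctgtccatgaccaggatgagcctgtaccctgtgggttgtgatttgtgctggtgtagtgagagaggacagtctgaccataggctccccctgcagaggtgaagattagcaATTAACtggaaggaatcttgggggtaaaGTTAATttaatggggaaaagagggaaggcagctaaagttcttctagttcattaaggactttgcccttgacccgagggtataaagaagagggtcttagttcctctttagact
*Miox*, chr15:89334223-89334522, plus strand: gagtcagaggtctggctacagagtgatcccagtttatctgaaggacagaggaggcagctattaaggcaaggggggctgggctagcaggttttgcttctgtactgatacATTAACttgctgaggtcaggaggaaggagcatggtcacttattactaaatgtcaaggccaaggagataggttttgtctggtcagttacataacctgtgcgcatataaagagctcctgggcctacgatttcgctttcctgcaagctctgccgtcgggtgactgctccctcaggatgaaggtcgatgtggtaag
*Umod*, chr7:119479213-119479512, minus strand: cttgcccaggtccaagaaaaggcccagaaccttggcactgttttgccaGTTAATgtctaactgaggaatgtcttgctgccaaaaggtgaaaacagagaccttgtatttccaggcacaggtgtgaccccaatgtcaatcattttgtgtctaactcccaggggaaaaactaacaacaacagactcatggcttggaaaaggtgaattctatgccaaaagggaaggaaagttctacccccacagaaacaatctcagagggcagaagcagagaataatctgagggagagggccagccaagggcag
The first bases of the *Slc34a1* matches lay at −89 and −61, that of *Miox* at −142, and that of *Umod* at −202 from the start. Of the 38 genes, 28 had such a window, and 7 of these 28 held the half-site on either strand (*Acsm2*, *Akr1c21*, *Dnase1*, *Miox*, *Pck1*, *Slc34a1*, and *Umod*). Counted by window, 7 of the 30 windows of these genes (23.3%) held it, and the same letters occurred in 7.10% of 32851 windows of all genes. The element CAAAGTCCA of HNF4 factors, searched on both strands, occurred in 0.475% of all windows and in 0 of the 30 windows. These are matches of letters only, and no binding was measured.

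All 38 genes were detected in the *Vsir-/-* library, with 90 UMIs for the lowest and 29006 for the highest. In the WT library 27 were listed at 0 and 11 had UMIs. The 38 genes together gave 172377 UMIs in the *Vsir-/-* library, or 9267 CPM (UMIs per 1000000 UMIs of the same cells), and 2605 UMIs in the WT library, or 79.4 CPM. On the log2 scale this difference was 6.87 (95% interval, 6.81 to 6.92). It was 5.73 with only *Ptprc*-positive cells, 5.64 with only cells of at most 5% of mitochondrial UMIs, and 5.51 without cells that had at least 2% of their UMIs from the 38 genes. All 38 genes were at least 2-fold higher in the *Vsir-/-* library, where 33.9% of the 15687 genes with at least 20 UMIs over both libraries were. Without cells that had at least 2% of their UMIs from the 38 genes, 37 reached this minimum and 36 of these were at least 2-fold higher. The 27 genes listed at 0 in WT passed this minimum through the *Vsir-/-* library alone and could not have come out otherwise. The outcome was also fixed for *Klk1*, *Slc34a1*, *Ttc36*, and *S100g*. With 4 to 7 WT UMIs, these could reach 20 only at an over 2-fold higher *Vsir-/-* level. The count is therefore only a description. The 11 genes with WT UMIs had a median ratio of 1137. The median was 1.20 over the 13256 genes that had UMIs in both libraries and at least 20 over both. The WT sum rested on few genes, since *Ass1* alone held 80.8% of it and *Ass1*, *Slc12a3*, *Epcam*, and *Gatm* together held 95.9%. Without *Ass1* the sums were 15.3 CPM in WT and 8979 CPM in *Vsir-/-* cells.

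Signs of other kidney cells moved with the same contrast. Markers of podocytes, the epithelial cells of the glomerular filter, summed to 4.09 CPM in WT and 212 CPM in *Vsir-/-* cells, with 2 of 5 genes listed at 0 in WT. Endothelial markers summed to 60.6 and 1294 CPM, with 3 of 5 at 0 in WT, and stromal markers to 3.81 and 167 CPM, with 2 of 5 at 0. Their part in the difference between the libraries was not tested.

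**Figure D1:**
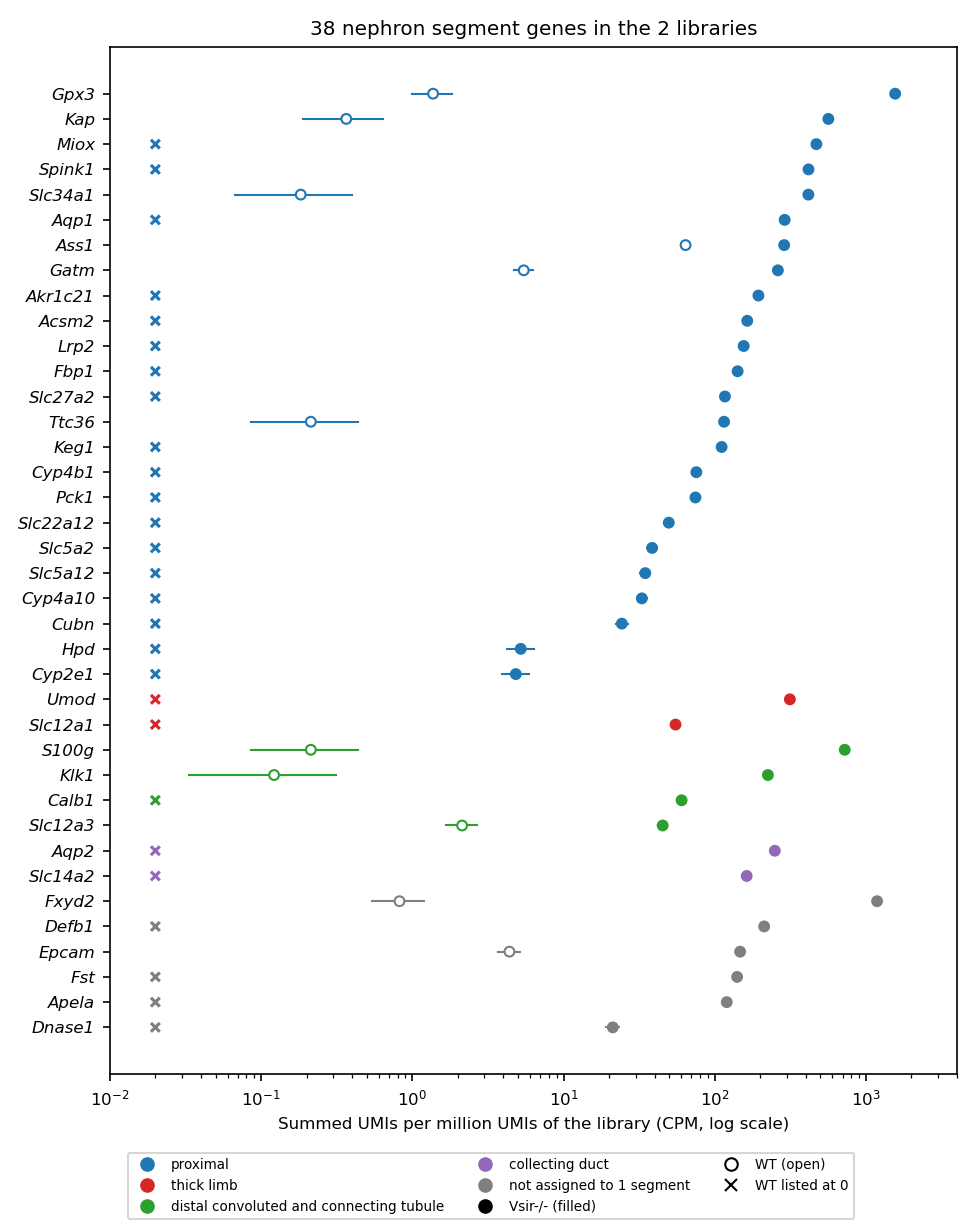
Level of each of the 38 genes in CPM (log scale), with filled points for the *Vsir-/-* library and open points for the WT library, coloured by segment. Bars are 95% Poisson intervals, and crosses at the left edge mark the 27 genes listed at 0 in WT cells. Every filled point lies to the right of its open point, and *Ass1* has the smallest gap.

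Among the proximal genes the most abundant was *Gpx3*, which encodes the glutathione peroxidase that the proximal tubule secretes into plasma. It had 29006 UMIs in the *Vsir-/-* library (1559 CPM; 1541 to 1577) and 45 UMIs in the WT library (1.37 CPM). *Kap*, an androgen-regulated kidney protein, had 10495 UMIs (564 CPM; 553 to 575) against 12 in WT. This gene is read beside the difference in sex-linked transcripts above, whose part was not tested. *Slc34a1*, which encodes the sodium-phosphate cotransporter of the brush border, had 7740 UMIs (416 CPM; 407 to 425) against 6, and *Ttc36* had 2144 (115 CPM; 110 to 120) against 7.

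Several proximal genes had no WT UMI. *Miox*, which encodes the enzyme that degrades myo-inositol, had 8745 UMIs in the *Vsir-/-* library (470 CPM; 460 to 480). *Spink1*, a secreted trypsin inhibitor, had 7756 UMIs (417 CPM; 408 to 426). *Aqp1*, the water channel of the proximal tubule and the thin descending limb, had 5394 UMIs (290.0 CPM; 282 to 298). The other proximal genes listed at 0 in WT ranged from 4.84 CPM for *Cyp2e1*, a cytochrome P450, and 5.21 CPM for *Hpd*, an enzyme of tyrosine breakdown, to 195 CPM for *Akr1c21*, a steroid dehydrogenase. Between them lay the receptors of protein reabsorption, *Lrp2* (megalin) at 155 CPM and *Cubn* (cubilin) at 24.3 CPM, and the glucose transporter gene *Slc5a2* (SGLT2) at 38.5 CPM. Parts of 3′ ends were shared with other genes for *Cyp2e1* (17.9% of its 31-base words in the last 500 bases), *Cyp4a10* (13.3%), and *Cyp4b1* (12.3%), so their counts are less certain.

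*Ass1* and *Gatm* were the proximal genes with the most WT UMIs. *Ass1*, which encodes argininosuccinate synthase, had 2104 UMIs in 1130 WT cells (64.1 CPM) and 5353 UMIs in 954 *Vsir-/-* cells (288 CPM), a ratio of 4.49 (4.26 to 4.72). In WT cells *Ass1* was highest in the cluster of non-effector memory-like (non-EM-like) CD4+ T cells at 132 CPM and was 12.1 CPM in neutrophils, and it was 563 and 183 CPM in the same clusters of the *Vsir-/-* library. In gdT cells the ratio for *Ass1* was 0.28 on the log2 scale (−0.63 to 1.18), an interval that includes no difference. Of the *Ass1* 3′ words, 35.7% occur in *Gm5424*, so that its counts could be split.

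*Gatm*, which encodes the first enzyme of creatine synthesis, had 179 WT UMIs (5.46 CPM) and 4864 *Vsir-/-* UMIs (261 CPM), a ratio of 47.9 (41.3 to 55.9). Of these WT UMIs, 115 lay in the R1 macrophages, the kidney-resident subset, at 165 CPM. In R1 macrophages of the *Vsir-/-* library *Gatm* was 347 CPM, in 180 of 237 cells with at most 14 UMIs in any cell, and the difference was 1.07 on the log2 scale (0.78 to 1.37). It was thus spread over many R1 cells in the *Vsir-/-* library, while neutrophils held *Gatm* at 2.42 CPM in the WT library and at 126 CPM in the *Vsir-/-* library.

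Both thick limb genes were listed at 0 in WT. *Umod* encodes uromodulin, the main protein of normal urine. It had 5840 UMIs (314 CPM; 306 to 322) in 1544 of 1844 *Vsir-/-* cells, or 83.7%. *Slc12a1*, which encodes the sodium-potassium-chloride cotransporter NKCC2, had 1024 UMIs (55.1 CPM; 51.7 to 58.5) in 638 cells.

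The 4 distal genes ranged widely in level, and 3 of them had WT UMIs. *S100g*, which encodes the calcium-binding protein calbindin-D9k, had 13469 *Vsir-/-* UMIs (724 CPM; 712 to 736) and 7 in WT. *Klk1*, a kallikrein of the connecting tubule, had 4181 (225 CPM; 218 to 232) and 4, but 57.6% of its 3′ words occur in related genes such as *Klk1b5*, so its counts are uncertain. *Calb1*, which encodes calbindin-D28k, had 1123 (60.4 CPM; 56.9 to 64.0) and was listed at 0 in WT. *Slc12a3*, which encodes the thiazide-sensitive cotransporter NCC, had 842 (45.3 CPM; 42.3 to 48.4) and 70, a ratio of 21.2 (16.6 to 27.5).

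Of the collecting duct genes, *Aqp2*, the water channel that vasopressin controls, had 4644 *Vsir-/-* UMIs (249.7 CPM; 243 to 257). *Slc14a2*, which encodes the urea transporters of the inner medullary collecting duct and the thin descending limb, had 3026 (163 CPM; 157 to 169). Both were listed at 0 in WT. Among the genes of no single segment, *Fxyd2*, a subunit of the sodium pump, was second only to *Gpx3* with 22035 *Vsir-/-* UMIs (1185 CPM; 1169 to 1200.3) against 27. The epithelial adhesion gene *Epcam* had 2738 (147 CPM; 142 to 153) against 144, a ratio of 33.5 (28.3 to 39.9). *Defb1*, a defensin, had 3949 (212 CPM; 206 to 219), *Fst*, the activin antagonist follistatin, had 2616 (141 CPM; 135 to 146), *Apela*, a ligand of the apelin receptor, had 2234 (120.1 CPM; 115 to 125), and *Dnase1* had 394 (21.2 CPM; 19.1 to 23.4), and all were listed at 0 in WT.

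The question of where these transcripts sat within the *Vsir-/-* library was then addressed with the clusters that the authors named. The non-EM-like CD4+ cluster held 98399 of the 172377 UMIs of the 38 genes, or 57.1% (56.8% to 57.3%), in 349 of 1844 cells, at 21402 CPM. Proliferating cells held 37956 UMIs at 8540 CPM. Among the 14 clusters with at least 10 cells, the sum was lowest in plasmacytoid dendritic cells (pDCs) at 1867 CPM and had a median of 4074 CPM. The share of the non-EM-like CD4+ cluster depended on the cells counted. It was 20.2% when only cells with a *Ptprc* UMI were kept, and 35.8% when cells with over 5% of mitochondrial UMIs were left out.

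The label of that cluster was checked against T cell transcripts. Of its 349 cells, 233 had no UMI of any of 6 T cell genes, and these 233 cells held 86.6% of the cluster's UMIs of nephron genes at 25210 CPM, with a median of 2.20% of each cell's UMIs. The 116 cells with a T cell transcript had 10849 CPM and a median of 0.312%. In proliferating cells the same split gave 11006 CPM in 123 cells without and 3406 CPM in 66 cells with a T cell transcript. The cluster is therefore called by its deposited name only.

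**Figure D2:**
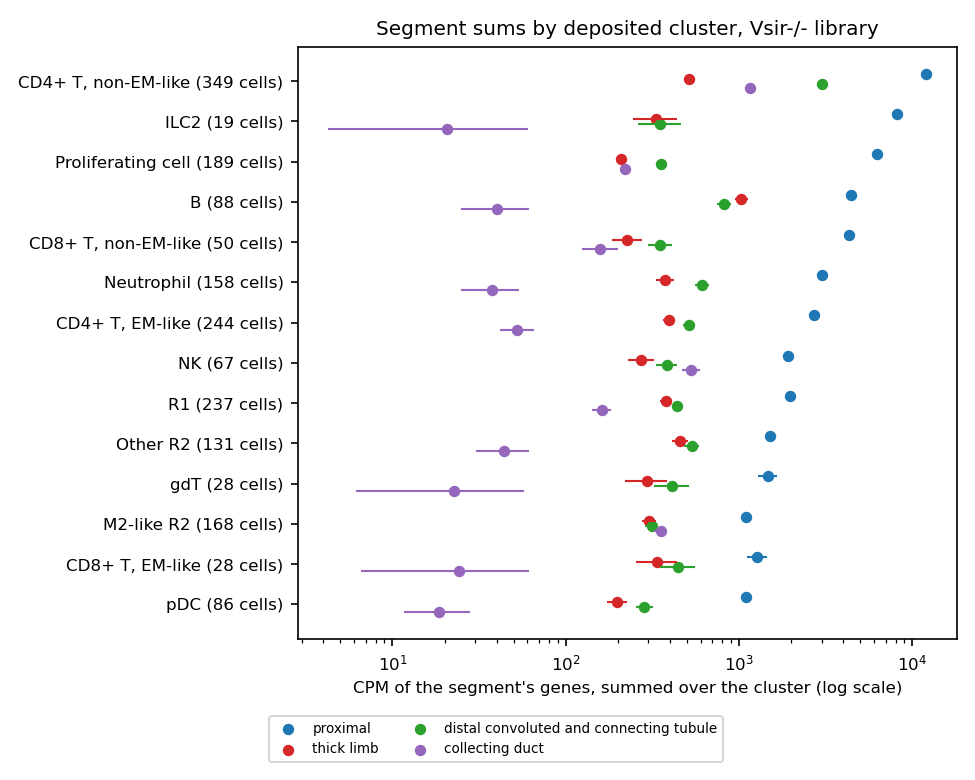
Summed CPM (log scale) of the genes of each segment in the 14 *Vsir-/-* clusters with at least 10 cells, ordered by the sum of all 38 genes, with 95% Poisson intervals as bars. Proximal sums lie above those of the other segments in every cluster shown, and the collecting duct sums spread most, from 18.6 to 1154 CPM. The sums are not corrected for list size. The proximal sum adds 24 genes, against 2 thick limb, 4 distal, and 2 collecting duct genes.

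The segments were not in a fixed proportion across these 14 clusters. Proximal genes gave 12055 CPM in the non-EM-like CD4+ cluster and 1090 CPM in pDCs, a span of 11.1-fold. Distal genes spanned 2999 to 285 CPM in the same clusters. Thick limb genes ranged only 5.18-fold, from 199 CPM in pDCs to 1029 CPM in B cells. Collecting duct genes spanned 62.1-fold, from 18.6 CPM in pDCs to 1154 CPM in the non-EM-like CD4+ cluster, and NK cells had 529 CPM. Proximal genes made up 72.1% (71.8% to 72.4%) of the UMIs of the 4 segments in the non-EM-like CD4+ cluster and 74.7% (73.1% to 76.2%) in neutrophils, with a range of 53.1% to 92.1% over the clusters. Neither the proximal share nor the order of the sums is corrected for list size. The lists held 24 proximal, 2 thick limb, 4 distal, and 2 collecting duct genes.

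The ratio of thick limb to proximal UMIs was lower in the non-EM-like CD4+ cluster than in neutrophils by 1.54 on the log2 scale (−1.54; −1.72 to −1.35). It was −0.39 when cells with over 5% of mitochondrial UMIs were left out, and −0.88 without cells that had at least 2% of their UMIs from the 38 genes, so its size rested on the cells kept. Gene by gene, 33 of the 38 were at least 2-fold higher in the non-EM-like CD4+ cluster than in neutrophils, where 64.2% of 12021 genes were. The exceptions were *Umod*, *Slc12a1*, *Hpd*, *Klk1*, and *Cyp4a10*, which include both thick limb genes. The minimum of 20 UMIs was counted over both clusters. *Slc5a2*, *Slc5a12*, *Cubn*, *Cyp2e1*, *Cyp4b1*, *Hpd*, *Epcam*, *Slc14a2*, *Apela*, *Fst*, and *Dnase1* held fewer than 20 UMIs in neutrophils. They passed the minimum only through the non-EM-like CD4+ cluster, so the count of 33 is only a description. The median difference was 1.90 on the log2 scale over the 38 genes and 1.498 over all 12021 genes.

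The non-EM-like CD4+ cluster had the highest level of 22 genes and the ILC2 cluster that of 12, and single cells carried much of several peaks. *Umod* was highest in B cells at 959 CPM, with 345 of its 503 UMIs there in 1 cell. *Slc12a3* was also highest in B cells at 196 CPM, with 85 of 103 UMIs in 1 cell. In M2-like R2 macrophages *Slc14a2* reached 324 CPM, with 538 of 542 UMIs in 1 cell, and in NK cells *Aqp2* reached 527 CPM, with 253 of 267 UMIs in 1 cell. Among the 19 cells of type 2 innate lymphoid cells (ILC2), *Akr1c21* reached 853 CPM with 103 of 124 UMIs in 1 cell, and *Slc27a2*, a fatty acid transporter, reached 674 CPM with 87 of 98. *Slc12a1* had the flattest profile, from 33.7 CPM in proliferating cells to 86.7 CPM in the other R2 macrophages, whose intervals were 28.6 to 39.6 and 67.2 to 110.1. *Cyp4b1* was highest in proliferating cells at 164 CPM (153 to 177), where 83 of 189 cells held it and the highest cell had 66 UMIs.

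**Figure D3:**
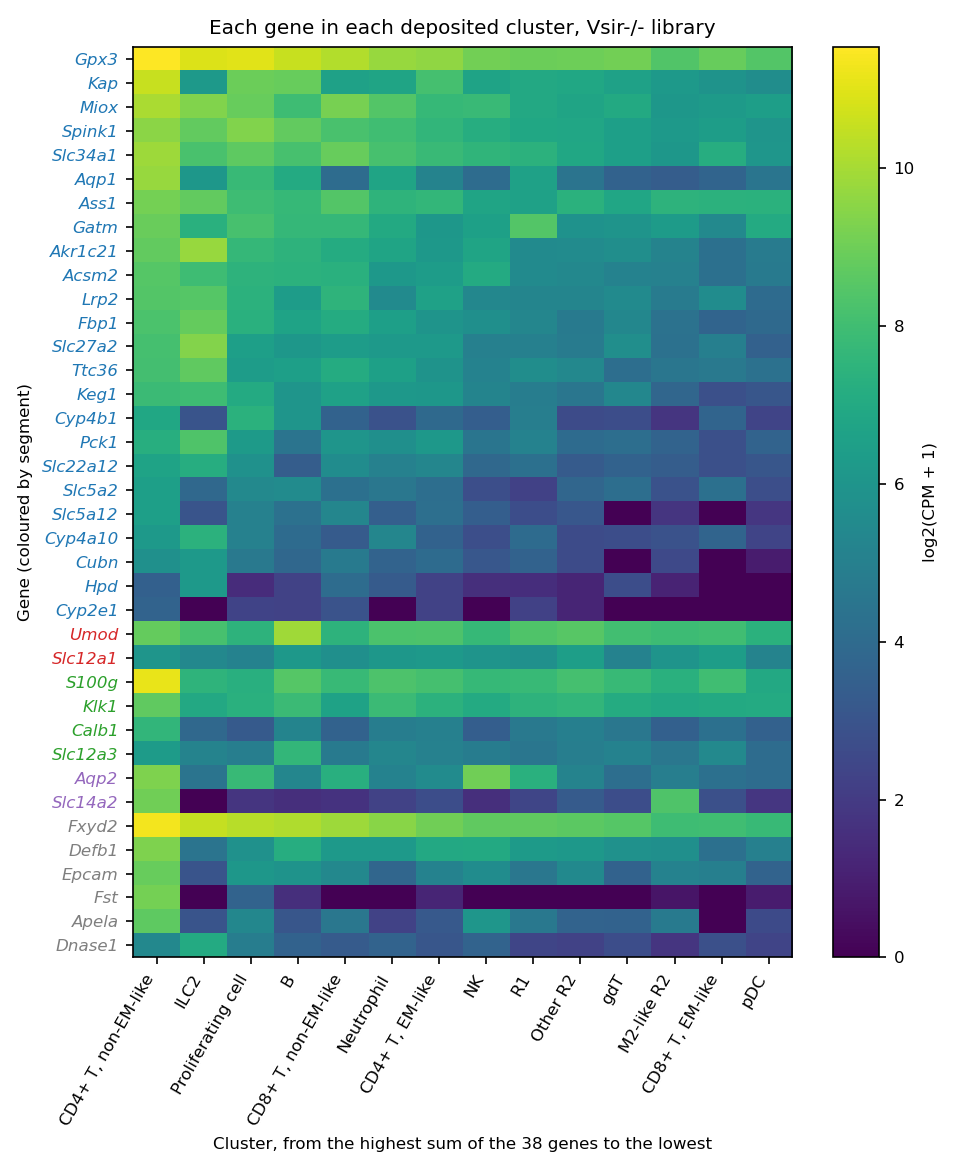
Level of each gene in each *Vsir-/-* cluster as log2(CPM + 1), with genes grouped by segment from the top and clusters ordered from the highest sum of the 38 genes to the lowest. *Gpx3* and *Fxyd2* are high in all clusters, *Slc12a1* varies from 33.7 to 86.7 CPM, and *Fst* is at 11.9 CPM or lower outside the non-EM-like CD4+ cluster.

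Clusters defined by other lineages also held these transcripts. In neutrophils, 27 of the 38 genes reached 20 UMIs over both libraries, and all of these 27 were at least 2-fold higher in the *Vsir-/-* library, where 9.99% of 7197 genes were. The count was 9 after thinning to 1000 UMIs and 10 at a minimum of 100 UMIs, since fewer genes reached the minimum. In B cells 26 reached 20 UMIs and were higher, where 16.3% of 9094 genes were. In the non-EM-like CD4+ cluster all 38 were higher, where 47.8% of 12583 genes were. Because few of these genes had WT UMIs, most passed the count minimum through the *Vsir-/-* library alone. When each cell was thinned to 1000 UMIs, 117 of 153 *Vsir-/-* neutrophils (76.5%; 68.9% to 82.9%) and 2 of 503 WT neutrophils (0.398%) held a proximal UMI. The shares before thinning were 99.4% and 3.44%, at median depths of 4097 and 3565 UMIs. For thick limb genes the thinned shares were 28.1% in *Vsir-/-* and 0 of 503 in WT neutrophils, for distal genes 51.0% and 0, and for collecting duct genes 4.58% and 0. Proximal UMIs were seen in 77.8% of thinned *Vsir-/-* B cells (66.4% to 86.7%), a share whose interval overlaps that of neutrophils. Neutrophils and B cells are not known to express the thick limb genes. The thinned share with a thick limb UMI was 45.8% (34.0% to 58.0%) in the 72 of 88 *Vsir-/-* B cells deep enough to thin. It was 28.1% (21.1% to 35.9%) in *Vsir-/-* neutrophils. Overlap of the 2 intervals does not show that the shares are equal, and their difference was not tested.

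The UMIs of the 38 genes were then traced to single cells. In every *Vsir-/-* cell at least 1 UMI came from the 38 genes, and the median cell drew 0.313% of its UMIs from them. The highest cell drew 21.6%. In the WT library 4057 of 5470 cells had none and the highest cell drew 0.408%. A limit of 2%, set after these values were seen, was reached by 226 *Vsir-/-* cells and 0 WT cells. These 226 cells were 12.3% of the library and held 67.3% of its UMIs of nephron genes, 111 cells lay between 1.5% and 2.5%, and 35 reached 5%. Of the 226, 188 had no *Ptprc* UMI and 204 no T cell transcript. By deposited cluster, 135 were non-EM-like CD4+ cells and 47 were proliferating cells.

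The genes differed widely in how many cells carried them. The counts below give the fewest cells that together held 50% of the UMIs of a gene. *Kap* reached it in 3 cells, of which the highest held 2130 UMIs or 20.3%, although 915 cells had at least 1 UMI of it. *Slc14a2* and *Calb1* reached it in 5 cells, *Fst*, *S100g*, *Slc12a3*, and the proximal gene *Hpd* in 6, and *Aqp2* in 7. *Hpd* had only 97 UMIs in all. *S100g* had 1448 cells with a UMI but 76.5% of its UMIs lay in the 21 cells with at least 20. *Klk1* had 29.6% of its UMIs in 1 cell.

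At the other end, *Umod* needed 163 cells and *Slc12a1* 133, more than any other gene. *Umod* had 33.7% and *Slc12a1* 21.8% of UMIs in the 226 cells at or over 2%, and outside them *Umod* was at 248.7 CPM against 314 CPM over all cells. *Gpx3* was in 92.5% and *Fxyd2* in 91.4% of *Vsir-/-* cells, yet 73.6% and 60.7% of their UMIs lay in the 226 cells. *Fst* was in only 26 cells, with a median of 86.5 UMIs where present. *Cyp4b1* was an exception among proximal genes, with 13.2% of its UMIs in the 226 cells, and *Aqp1* had 32.8%.

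**Figure D4:**
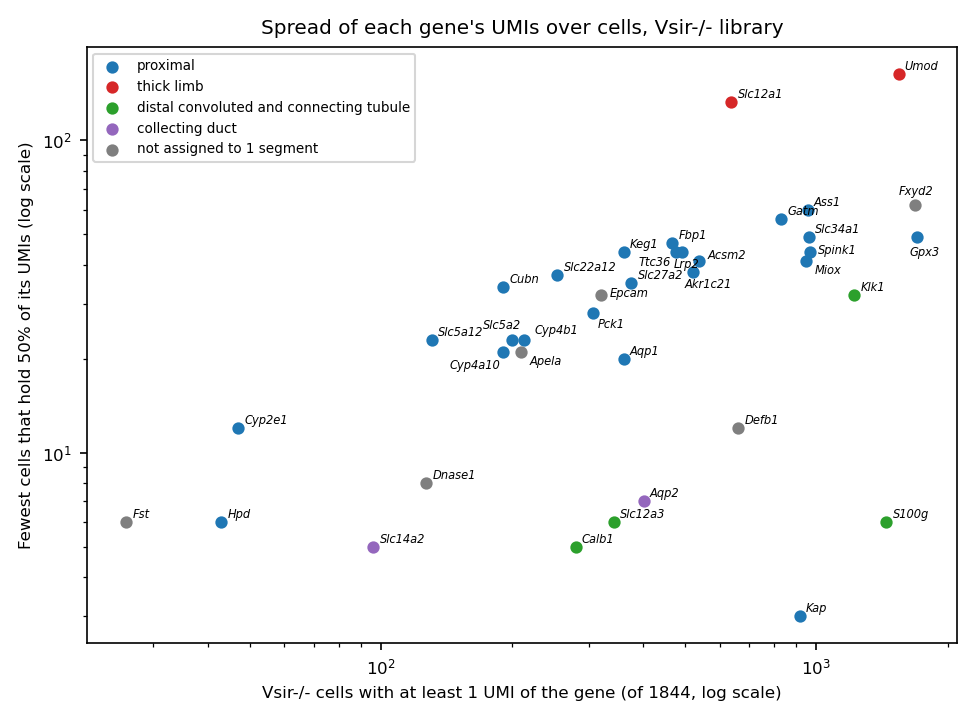
Number of *Vsir-/-* cells with at least 1 UMI of each gene against the fewest cells that hold 50% of its UMIs (both log scales), coloured by segment. *Umod* and *Slc12a1* lie at the top with 163 and 133 cells, *Kap* lies lowest with 3 cells, and most proximal genes lie between 20 and 60 cells.

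The same sums were taken without the 226 cells, which narrows the range of the 38 genes by construction. In the 14 clusters, the sum of the 38 genes ranged 3.24-fold, from 1867 CPM in pDCs to 6044 CPM in the non-EM-like CD4+ cluster. Proximal genes ranged from 1090 to 3684 CPM and made up 59.2% to 80.7% of the UMIs of the 4 segments. Thick limb genes ranged from 199 to 456 CPM and distal genes from 285 to 633 CPM. Collecting duct genes still spanned 28.5-fold, with 530 CPM in NK cells, which is the cluster of the single cell with 253 *Aqp2* UMIs, and 486 CPM in the non-EM-like CD4+ cluster.

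Each of the 226 cells was sorted by which of the 4 segments gave the most UMIs. The genes of no single segment were left out here, although they counted toward the limit that chose the cells. By this rule 185 cells were led by proximal, 11 by thick limb, 20 by distal, and 10 by collecting duct genes. A lead therefore need not hold most of a cell's nephron UMIs. In a proximal-led cell of the non-EM-like CD4+ cluster, proximal genes gave 0.272% of all UMIs. Some leads were narrow, and in cells of low depth a lead can rest on few UMIs. In a distal-led M2-like R2 cell, distal genes gave 0.765% and proximal and thick limb genes 0.574% each. Ties went to the segment listed first. A B cell with 0.935% from both proximal and distal genes was thus counted as proximal-led. The sorting is not corrected for list size, and the proximal list is the longest. The leading segment held a median of 96.8% of the UMIs of the 4 segments in a cell and at least 90% in 167 cells, and under 60% in 15. Because the same counts chose the cells and their leading segment, these shares only describe the choice.

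A list of 44 further nephron genes that the choice did not use was read in the same cells. The 15 further proximal genes, among them *Slc4a4*, a bicarbonate cotransporter, and *Slc13a3*, a dicarboxylate transporter, summed to 8130 CPM in proximal-led cells and to 151 to 288 CPM in the cells led by other segments. The 10 further thick limb genes, which include *Egf* and *Kcnj1*, summed to 5903 CPM in thick limb-led cells, 2061 CPM in distal-led cells, and 384 CPM in proximal-led cells. The 6 further distal genes were higher in thick limb-led cells, at 4696 CPM, than in distal-led cells, at 3472 CPM. The 7 further genes of principal cells, such as *Hsd11b2* and *Fxyd4*, were highest in distal-led cells at 7926 CPM. The 6 further genes of intercalated cells were also highest in distal-led cells, at 595 CPM. In the 10 collecting duct-led cells the principal cell genes summed to 68.1 CPM and the intercalated cell genes to 51.1 CPM. These 10 cells are therefore named by their leading list only. In the cells under 2% the same lists gave 533 CPM for the proximal and 200.1 CPM for the thick limb genes. The principal cell genes gave 368 CPM there and the intercalated cell genes 144 CPM. The proximal list includes *Napsa*, which had 6302 UMIs in the *Vsir-/-* library. In WT cells *Napsa* made up 210 of the 219 CPM of this list. The whole list gave 8290 UMIs in the cells under 2%, and the part of *Napsa* in them is not given here.

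**Figure D5:**
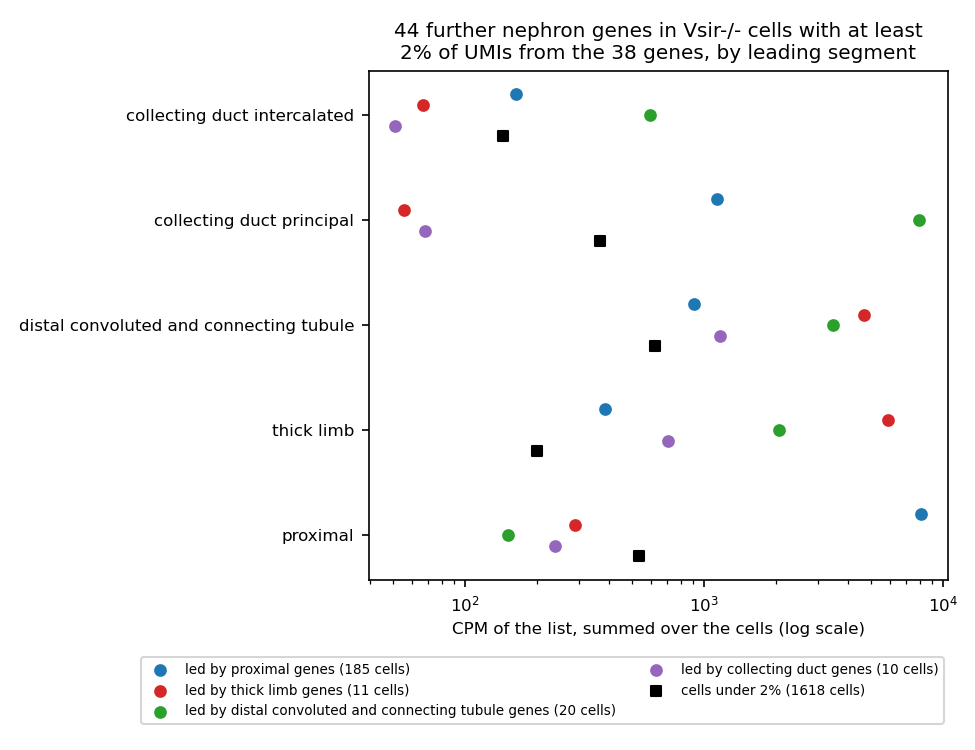
Summed CPM (log scale) of the lists of 44 further nephron genes in the 226 *Vsir-/-* cells with at least 2% of UMIs from the 38 genes, by leading segment, and in the 1618 cells under 2%. The proximal list is highest in proximal-led cells at 8130 CPM, the thick limb and distal lists in thick limb-led cells at 5903 and 4696 CPM, and the principal cell list in distal-led cells at 7926 CPM.

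Genes assigned to the same segment did not always share cells. In the 10 collecting duct-led cells *Slc14a2* gave 20095 CPM and *Aqp2* 34.1 CPM, so all 10 were led by *Slc14a2*. *Aqp2* was highest in distal-led cells at 2548 CPM, together with *S100g* at 34160 CPM, *Klk1* at 5138 CPM, *Calb1* at 2596 CPM, and *Defb1* at 5529 CPM. The *Klk1* level rested on 1 cell, which held 1239 of its 1391 UMIs in these 20 cells. Most *Aqp2* UMIs lay outside the distal-led cells. Of 4644, the distal-led cells held 690, the proximal-led cells 1261, and the cells under 2% held 2688. In the 35 cells with at least 5 *Aqp2* UMIs lay 72.0% of all *Calb1*, 74.1% of all *S100g*, and 65.4% of all *Defb1* UMIs, and 32 of the 35 also had at least 5 *Epcam* UMIs. *Slc14a2* reached 5 UMIs in 2 of these 35 cells.

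*Slc14a2* shared cells with a different set. At least 5 *Slc14a2* UMIs were found in 29 cells, of which 29 also had at least 5 *Epcam*, 25 at least 5 *Apela*, 13 at least 5 *Aqp1*, and 10 at least 5 *Fst* UMIs. The 19 cells with at least 5 *Fst* UMIs all had at least 5 *Apela*, *Aqp1*, and *Epcam* UMIs, and held 99.7% of *Fst* and 32.4% of all *Aqp1* UMIs. Of these 19 cells, 18 lay in the non-EM-like CD4+ cluster and 17 had no T cell transcript. The proximal transporter gene *Slc34a1* gave 43.8 CPM in them, against 416 CPM in the whole library, and *Aqp1* gave 3831 CPM. *Aqp1* was thus counted with the proximal genes here although a share of it sat with *Fst* and *Slc14a2*, and all 13 of these *Fst* cells at or over 2% were led by the proximal list.

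The cells that held the thick limb and distal cotransporters were few. Of the 15 cells with at least 5 *Slc12a1* UMIs, 14 had at least 5 *Umod* UMIs, at 5617 CPM of *Umod*. Of the 6 cells with at least 5 *Slc12a3* UMIs, 4 had at least 5 *Umod* UMIs, and these 6 held 55.0% of all *Slc12a3* UMIs. In thick limb-led cells *Slc12a3* gave 1794 CPM, above the 831 CPM of the distal-led cells. All 162 *Slc12a3* UMIs of the 11 thick limb-led cells lay in 2 cells. The 225 UMIs of the 20 distal-led cells lay in 8 cells, so neither level describes its group as a whole.

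*Cyp4b1* sat with markers of other cells. The 70 cells with at least 5 *Cyp4b1* UMIs held 83.4% of its UMIs, had a median depth of 45696 UMIs, and drew a median of 0.141% of their UMIs from the 38 genes. Endothelial markers summed to 5393 CPM and podocyte markers to 853 CPM in these 70 cells, against 1294 and 212 CPM in the whole library. Proximal genes were also found there. At least 5 *Slc34a1* UMIs were held by 20 of the 70 cells and at least 5 *Miox* UMIs by 17. *Slc34a1* gave 285 CPM and *Miox* 434 CPM in the 70 cells, against 416 and 470 CPM in the whole library. *Kap* was lower, at 81.8 against 564 CPM. Doublets were not removed, and the part of depth in these levels was not tested.

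Genes whose cluster profile was close to that of the proximal sum in the *Vsir-/-* library were *Gsta2* (Pearson's r = 0.979), *Slc4a4* (0.975), *Rida* (0.973), and *Gstm5* (0.965), over 14 clusters that share 1 library and its depth. Of them, *Gsta2* was listed at 0 in WT, and *Rida* had 306 WT UMIs. Of the 44 further nephron genes, 43 reached 20 UMIs over both libraries, 40 of these were at least 2-fold higher in the *Vsir-/-* library, and 25 of the 44 were listed at 0 in WT. The exceptions among the 43 were *Napsa*, *Wnk1*, and *Sgms2*. *Napsa* had 210 CPM in WT and 339 CPM in *Vsir-/-* cells, and *Wnk1*, a kinase that many cell types express, had 246 and 234 CPM.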

How the data were processed

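Kidney cells of 1 WT and 1 *Vsir-/-* library were studied. The deposited matrix holds UMI counts for each gene in each cell, as whole numbers that were not normalized. The submitters' processing notes name Cell Ranger (version 3.1.0), R (version 4.0.3), Seurat (version 3.2.3), and the build mm9. Per the methods, genes seen in few cells and cells with over 10% of mitochondrial UMIs were removed. A deposited table assigns each cell to a library and a cluster and gives its percent of mitochondrial UMIs, which was used for an alternative limit of 5%. Deposited UMAP coordinates, a score for each cell, were not used. Cell types are the authors' names, and doublets were not removed.

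UMIs were summed per gene, cluster, and library, and CPM refer to all UMIs of the same cells. Intervals are at the 95% level (exact Poisson for CPM, Clopper-Pearson for shares, exact conditional for ratios, and a normal approximation for the ratio of ratios). Called genes had at least 20 UMIs over both groups and a pseudocount of 0.5 UMIs. Cells were thinned to 1000 UMIs with a fixed seed, which left out 167 WT and 78 *Vsir-/-* cells. Because 3′ tags were counted, levels were compared between genes without a correction for length.

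The genes, gene lists, and segments were chosen with earlier results of these data known. Values are given for the 12 genes with the highest *Vsir-/-* level, for all genes outside the proximal list, and for the 5 genes most like the proximal sum among those with at least 500 UMIs, of which 1 is not reported here. Single clusters, single cells, and other proximal genes named beyond this rule were chosen after their values were seen. Other filters on cells and genes, depths, denominators, pseudocounts, weights, centring, and a shorter proximal list were tried. The ratios and intervals were tested on simulated Poisson counts. These leave out the uneven spread of UMIs over cells, so the test does not cover it. Python 3.11.15, numpy 2.4.6, scipy 1.17.1, pandas 2.3.3, and matplotlib 3.10.9 were used.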

Additional observations from a re-analysis of the deposited data

How the results depend on the processing

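No paired analysis was possible because each genotype had 1 library, and for the same reason no replicate could be left out. Of 57 recalculations, 28 stayed within the counting interval or within 1.5 times the count, 29 moved, and 0 reversed direction. Only the log2 values could reverse, since counts and shares are never negative. The proximal share was lower in the non-EM-like CD4+ cluster than in neutrophils at first (72.1% against 74.7%). It was higher there after thinning, without cells at or over 2%, and without the top cell, and lower in the other settings tried. When only cells with at most 5% of mitochondrial UMIs were kept, the log2 difference in the sum of the 38 genes was 5.64, the share in the non-EM-like CD4+ cluster was 35.8%, the proximal shares were 53.8% in that cluster and 68.1% in neutrophils, and the log2 ratio of thick limb to proximal UMIs was −0.39. With only *Ptprc*-positive cells the log2 difference was 5.73, the cluster share 20.2%, its proximal share 57.0%, and the thick limb ratio −1.13. Without cells at or over 2%, an alternative chosen after seeing the data, these were 5.51, 28.4%, 62.2% with 60.04% in neutrophils, and −0.88. Without the cell with the most UMIs of the 38 genes in each library, the cluster share was 56.2% and its proximal share 75.1%. Thinning to 1000 UMIs gave a cluster share of 51.6%, proximal shares of 76.5% in the cluster and 67.2% in neutrophils, a thick limb ratio of −0.79, and 9 called genes in neutrophils, and a minimum of 100 UMIs gave 10, since fewer genes reached the minimum. With cells weighted equally the cluster share was 47.9%. Without *Kap*, *Gpx3*, *Ass1*, *Fbp1*, *Gatm*, and *Aqp1*, the proximal shares were 53.4% and 60.1%, the thick limb ratio −1.34, and the share of thinned neutrophils with a proximal UMI 49.7%. The last was 52.5% at 500 UMIs and 99.4% without thinning. The other causes were not tested.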
